A study of Mus musculus with 63 samples.

Results

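The clustered protocadherins are cell-surface adhesion proteins encoded by neighbouring alpha, beta and gamma gene clusters on mouse chromosome 18. They were taken as every gene of the deposited expression table whose symbol begins with Pcdha, with Pcdhb and a digit, or with Pcdhg, which gave 24 of 23078 genes. The beta cluster was complete, with 22 rows from Pcdhb1 to Pcdhb22. The alpha and gamma clusters were each a single row, labelled Pcdha2 (ENSMUSG00000007440.8) and Pcdhga9 (ENSMUSG00000023036.8). In the GENCODE vM21 annotation (GRCm38), which lists 14 alpha, 22 beta and 22 gamma genes, those 2 identifiers carry other symbols of the same clusters, Pcdha11 and Pcdhgc4. The labels do not say whether each single row pools transcripts of its whole cluster, so the values are called below the alpha row and the gamma row and are not read as levels of 1 isoform.

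In the alpha and gamma clusters, a variable exon that encodes the extracellular part is spliced to exons shared by the whole cluster, whereas each beta gene is a single coding exon. A neuron switches on a small set of these promoters, through CTCF, cohesin and DNA methylation, and the resulting mixture of proteins binds only matching mixtures on other membranes. This recognition is known for self-avoidance of neurites, for neuronal survival and for the branching of dendrites in the cortex.

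The data were 63 RNA-seq libraries of GFP-positive cells sorted from the dorsal cerebral cortex of C57Bl/6 mouse embryos. Every embryo carried the Ski knock-out genotype, so no comparison with wild type was made here. Neural stem cells (NSC) came from the Hes5::GFP line in 26 libraries of 8 daily groups, E11.5 to E18.5. Basal progenitors (BP), the intermediate cells that divide to give neurons, came from the Tbr2::GFP line in 24 libraries of 7 groups, E12.5 to E18.5. Newborn neurons (NBN) came from the same line in 13 libraries of 4 groups, E15.5 to E18.5. A Hes5 or Tbr2 reporter marks cells by a protein that can outlast the gene's own expression, and the labels do not describe how BP and NBN were separated among Tbr2::GFP cells. The labels do not say whether replicates are separate embryos or litters, so p-values measure the spread between these libraries, which may be technical.

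Levels are TPM, a relative transcript abundance on a scale corrected for transcript length that has the same total in each library and keeps no sequencing depth. Ski itself was listed at 17.2 to 53.1 TPM in all libraries. The labels do not name the deleted part of Ski, so this level checks no label. Summed TPM of 12 radial glia markers were 1372 to 8062 in NSC, 564 to 926 in BP and 414 to 710 in NBN, and those of 10 basal progenitor markers were highest in BP (1440 to 2334, against 501 to 2064 in NSC and 120 to 336 in NBN). Summed TPM of 14 cortical projection neuron markers were 860 to 6925 in NSC, 4151 to 6936 in BP and 8096 to 10563 in NBN, so that the NSC and BP libraries also held abundant neuronal RNA. Summed interneuron markers had a median of 277 TPM in NSC, against 27.5 TPM in BP and 32.9 TPM in NBN. Summed microglia markers reached 322 TPM in NSC and 144 TPM in NBN, against 17.53 TPM in BP, and erythroid markers reached 9487, 3740 and 2743 TPM. The part of interneuron, microglia and erythroid RNA in the results was not tested. In bulk samples a smaller share of expressing cells and less RNA per cell cannot be told apart.

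The gamma row was by far the most abundant of the 24. Averaged over group means it made up 80.3% of the summed protocadherin TPM in NSC, 78.7% in BP and 69.5% in NBN. The alpha row made up 6.81%, 7.41% and 13.2%, and the 22 beta rows together 12.9%, 13.9% and 17.2%. By library, the gamma share was 59.6% to 76.3% in NBN, against 72.7% to 89.1% in NSC and 72.7% to 84.4% in BP. The plot of levels by library shows the courses of the alpha row, the beta sum and the gamma row. All rose in NSC. On each of the 4 shared days the alpha row and the beta sum had their highest group mean in NBN. For the beta sum, all NBN libraries lay above all BP libraries on 2 of these days, and above all NSC libraries on 2. The gamma row ended at about the same level in all cell types.

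**Figure D1:**
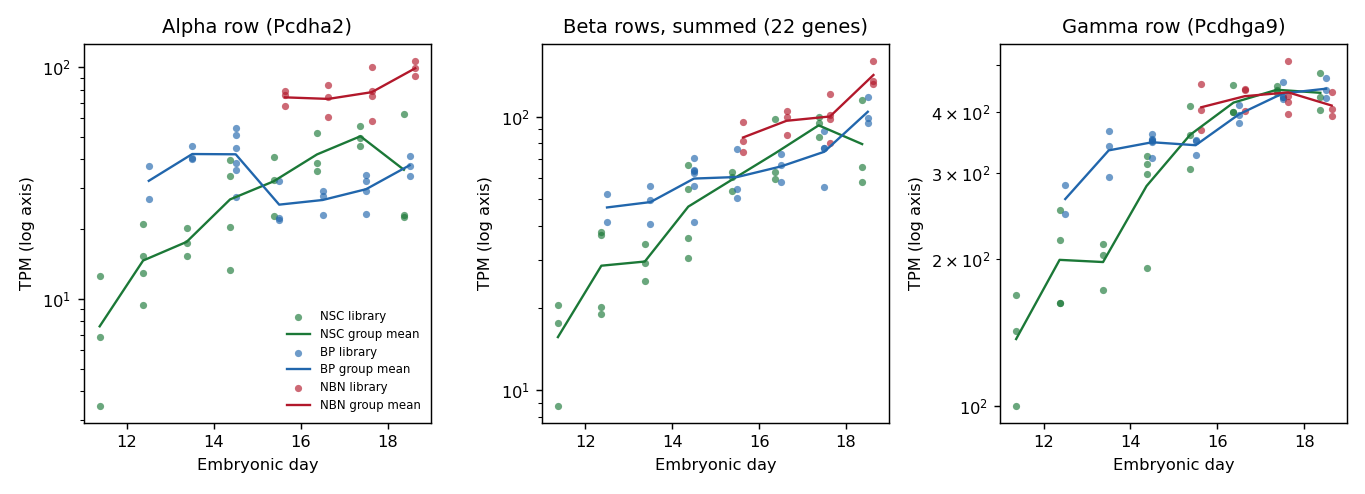
TPM (log axis) of the alpha row, of the 22 beta rows summed and of the gamma row against embryonic day, with a point for each library and a line through the group means of NSC, BP and NBN. The NBN alpha libraries (58.3 to 106 TPM) lie above all BP libraries (21.9 to 54.4 TPM), whereas the gamma row reaches group means of 413 to 447 TPM in all cell types at E18.5.

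The alpha row rose through NSC development. Its level in the 3 NSC libraries of E11.5 was 3.46, 6.83 and 12.54 TPM. At E12.5 it was 15.2, 20.9, 12.97 and 9.40 TPM, and at E13.5 17.4, 20.1 and 15.3 TPM. Each of these libraries was below every BP and every NBN library. At E14.5 the NSC libraries spread from 13.3 to 39.6 TPM (13.3, 20.4, 39.6 and 34.0), and at E15.5 they held 22.7, 41.0 and 32.7 TPM. The values at E16.5 were 51.8, 35.7 and 38.4 TPM, and at E17.5 49.5, 55.8 and 45.6 TPM. Every E17.5 library was above every NSC library of E15.5 and earlier. At E18.5 the group split, with 62.6 TPM in replicate 1 and 22.9 and 22.6 TPM in replicates 2 and 3.

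In BP the alpha row had no such course. It was 27.1 and 37.5 TPM at E12.5 and 40.7, 45.8 and 40.0 TPM at E13.5, and the 6 libraries of E14.5 ran from 27.5 TPM through a median of 41.7 to 54.4 TPM. It was then lower, at 22.3, 21.9 and 32.3 TPM at E15.5 and 29.2, 22.97 and 27.9 TPM at E16.5. The level was 32.3, 23.1, 29.1 and 34.4 TPM at E17.5 and 41.4, 37.6 and 34.0 TPM at E18.5. The 6 libraries of E15.5 and E16.5 lay below every library of E13.5 and E18.5 and overlapped with those of the other days.

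NBN held the highest alpha levels. The libraries of E15.5 had 75.8, 67.8 and 78.5 TPM, those of E16.5 83.7, 73.9 and 61.0 TPM, and those of E17.5 99.6, 58.3, 78.5 and 75.3 TPM. At E18.5 they had 106, 99.0 and 91.4 TPM. The lowest NBN library was above the highest BP library, and 1 NSC library, E18.5 replicate 1 (62.6 TPM), exceeded the 2 lowest NBN values. On each of the 4 shared days all NBN libraries were above all NSC libraries of that day. In the order of the 19 group means, from NSC E11.5 (7.61 TPM) to NBN E18.5 (98.8 TPM), 5 of 18 neighbouring pairs differed by more than the larger of their SDs.

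The gamma row rose in NSC from 100.1, 142 and 169 TPM at E11.5 to 445, 452 and 437 TPM at E17.5. Its group means were 199 TPM at E12.5, 197 at E13.5, 282 at E14.5, 359 at E15.5 and 418 at E16.5. No E11.5 to E13.5 library exceeded 252 TPM and none from E16.5 on fell below 401 TPM, so the early and late NSC libraries did not overlap. At E18.5 the NSC libraries held 480, 405 and 430 TPM. In BP it rose less, from 247 and 284 TPM at E12.5 to 427, 444 and 470 TPM at E18.5. In NBN it was flat, with group means of 409 ± 45.7 (SD, n = 3), 431, 439 and 413 ± 25.2 (SD, n = 3) TPM from E15.5 to E18.5. Only 2 of 18 neighbouring pairs in the order of its group means differed by more than the larger SD.

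Among beta genes, Pcdhb17 was highest (10.3 TPM over the 19 group means), followed by Pcdhb7 (6.30 TPM) and Pcdhb20 (5.87 TPM). Pcdhb1 was at the other end: it never reached 1 TPM, its highest library held 0.204 TPM, and it was listed at 0 in 39 libraries. The remaining 23 members passed the filter for testing, at least 1 TPM in at least 3 libraries. The genes numbered Pcdhb17 to Pcdhb22 supplied 43.4% of beta TPM, Pcdhb1 to Pcdhb9 38.7% and Pcdhb10 to Pcdhb16 18.0%. The ranking of the 22 genes was nearly the same in NSC and BP (Spearman's rho 0.997 across genes) and close to it in NBN (0.924 with NSC and 0.922 with BP). Genes are not independent replicates, and part of each estimate rests on shared sequence. A median of 11.8% of the 31-base words of a beta gene's transcripts occur in another gene (8.5% for Pcdhb17, 19.4% for Pcdhb7, 66.9% for Pcdhb12, the highest). For Pcdhb12, 22.5% of words occur in other clustered protocadherins and 63.1% in genes outside them. Among beta genes, its reads in particular could be assigned to other genes, or theirs to it. For the identifiers of the alpha and gamma rows, 63.0% and 37.4% of words occur in another gene of that annotation. The levels, shares and ratios of these rows carry the same limit, and the transcripts counted in them are not known.

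**Figure D2:**
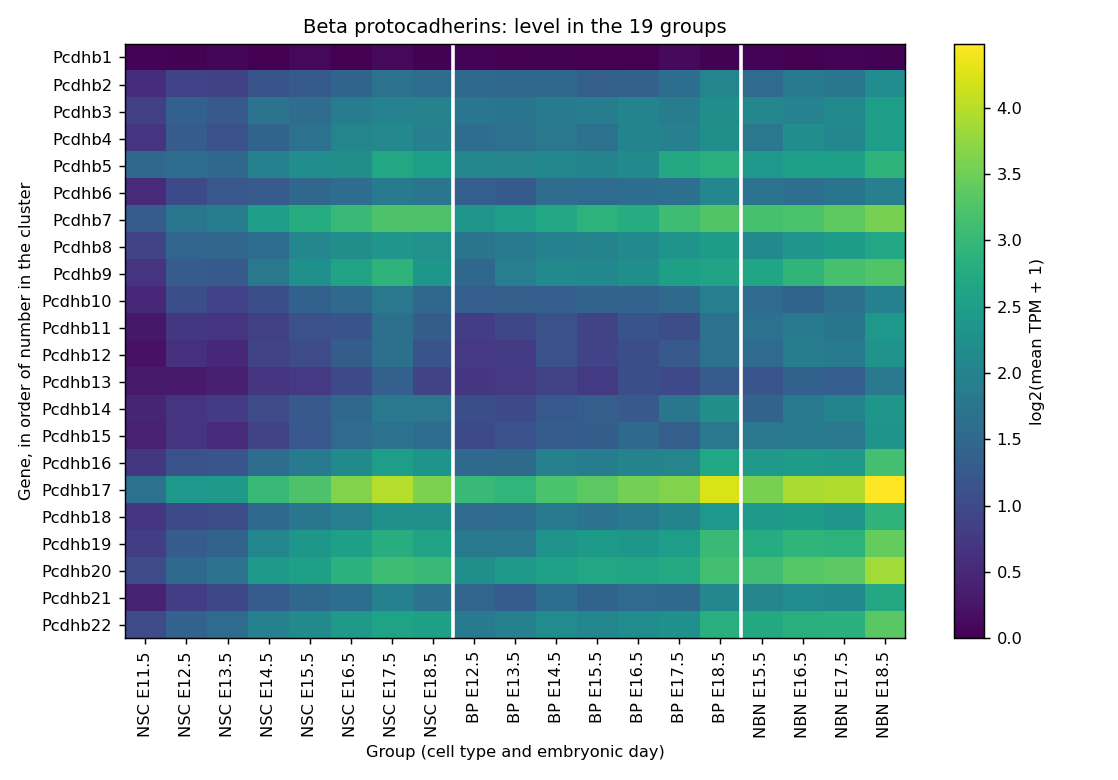
Level of each of the 22 beta genes, as log2 of the group mean TPM plus 1, in the 19 groups ordered by cell type and day, with white lines between NSC, BP and NBN. Pcdhb17 is the brightest row in every block, Pcdhb1 is near 0 throughout, and most rows brighten from left to right within each block.

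Pcdhb17, the highest beta gene, was higher on the last days sampled than on the first in each cell type. It had 0.640, 2.69 and 3.24 TPM in the NSC libraries of E11.5 and 13.62, 13.89 and 16.996 TPM in those of E17.5, without overlap. At E18.5 it had 17.3 TPM in NSC replicate 1 but 7.41 and 8.67 TPM in replicates 2 and 3. In BP it rose from 6.94 and 7.55 TPM at E12.5 to 20.8, 17.8 and 14.54 TPM at E18.5. In NBN the E15.5 libraries held 13.55, 9.39 and 9.57 TPM and the E18.5 libraries 24.6, 20.5 and 18.9 TPM, again without overlap. Its share of beta TPM moved little, from 12.8% to 16.9% in the group means.

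Summed beta TPM were 15.6 ± 6.12 (SD, n = 3) in NSC at E11.5 and 93.1 ± 8.21 (SD, n = 3) at E17.5. In BP they went from 46.6 ± 7.71 (SD, n = 2) at E12.5 to 104 ± 12.48 (SD, n = 3) at E18.5, and in NBN from 84.1 ± 10.7 (SD, n = 3) at E15.5 to 142 ± 15.2 (SD, n = 3) at E18.5. The number of beta genes at 1 TPM or more rose in parallel, from 1 to 8 of 22 in the NSC libraries of E11.5 to 21 in every NSC library of E17.5 and in every NBN library. A gene at 1 TPM in bulk need not be used by every cell.

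The beta genes moved together: over the 19 group means, the 210 pairs of the 21 beta genes that passed the filter had a median Pearson r of 0.942 (0.843 to 0.992). The beta sum had r = 0.903 with the alpha row and 0.947 with the gamma row. Within NSC (8 groups) these were 0.984 and 0.993, but within BP (7 groups) alpha had r = -0.04 with beta while gamma had 0.882, and within NBN (4 groups) alpha had 0.946 and gamma -0.13. These correlations are descriptions over points that share the time course, and TPM within a library share their total.

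The change with day was given as the least squares slope through the group means on log2(TPM + 1), multiplied by the days spanned, and tested with limma over 15231 genes with Benjamini-Hochberg adjustment. A gene was called where its adjusted p was under 0.05 and its change reached 1 log2 unit in either direction. In NSC, 22 of 23 members were called higher and none lower, where 14.8% of all genes tested were called higher, and the median change was 1.38 for the members and 0.09 for all genes. The exception was Pcdhb13, whose change of 0.93 missed the size limit. Without that limit all 23 were higher at an adjusted p under 0.05, beside 37.1% of all genes. The alpha row rose by 2.28 (SE 0.23, adjusted p = 7.4e-12), Pcdhb17 by 2.14 (SE 0.20), Pcdhb20 by 2.06 (SE 0.19), Pcdhb7 by 2.05 (SE 0.17) and the gamma row by 1.79 (SE 0.11, adjusted p = 4.2e-19). With quantile scaling, which moved the median of all genes to -0.07, 15 members were still called; with a pseudocount of 5 it was 5.

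**Figure D3:**
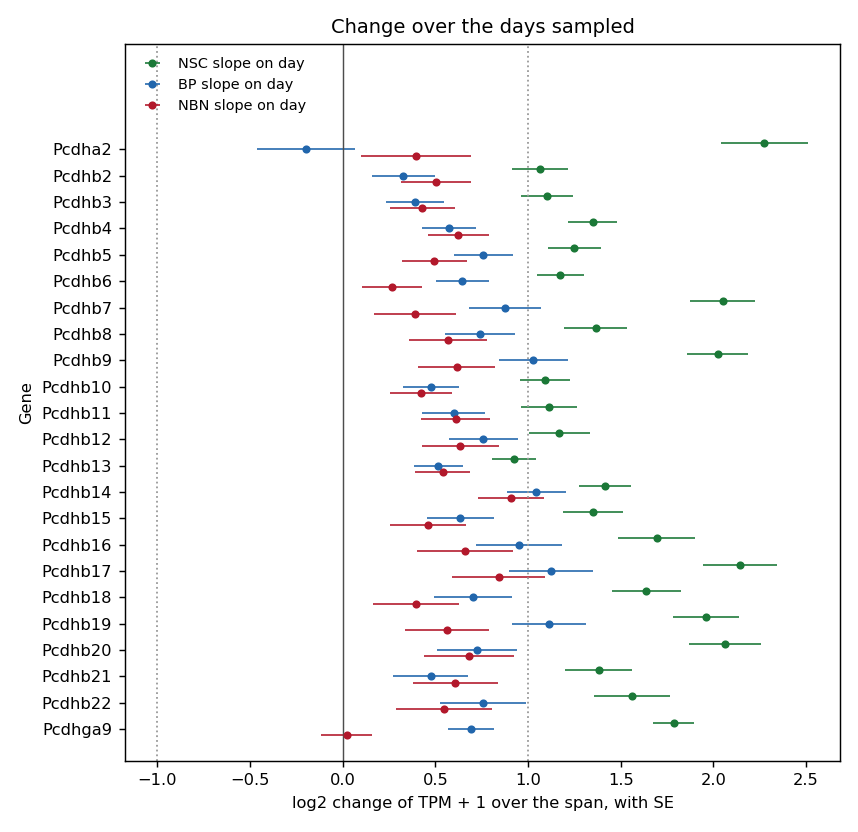
Log2 change of TPM + 1 over the days sampled (NSC E11.5 to E18.5, BP E12.5 to E18.5, NBN E15.5 to E18.5) for the 23 tested members, with SE bars and dotted lines at the size limit of 1. NSC changes lie to the right of BP changes for every member, from 0.93 for Pcdhb13 to 2.28 for the alpha row, and the spans differ between the cell types.

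Neuronal marker RNA moved with this change. Summed TPM of the 14 projection neuron markers in NSC ran from 860 to 2623 at E11.5 and from 5901 to 6566 at E17.5, and at E18.5 they were 4878 in replicate 1, the library high in alpha and beta, against 2604 and 2349 in replicates 2 and 3. Radial glia markers were lower in replicate 1 (4091 TPM) than in replicates 2 and 3 (7763 and 8062 TPM). The mean log2 level of the neuron markers in each library was also used as a covariate, an alternative added after the data had been seen. With it, 6 members were called higher in NSC rather than 22, and 13 rather than 23 had an adjusted p under 0.05. The median change was 0.77 for the members and -0.01 for all genes. The share of all genes called under this covariate was not computed. The alpha change was then 0.09 (adjusted p = 0.81) and was no longer called, that of Pcdhb17 was 0.79, and that of the gamma row stayed called at 1.15 (adjusted p = 2.7e-06). The coefficient of this covariate comes from the spread between libraries within groups of all cell types. It is extrapolated across days, as the marker sums of E11.5 and E17.5 did not overlap. The part of neuronal RNA in these changes was therefore not tested. The other 5 calls were Pcdhb4, Pcdhb5, Pcdhb8, Pcdhb14 and Pcdhb19.

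In 7 NSC libraries the neuron marker sum lay between 2300 and 2900 TPM, a range chosen after the data had been seen, and their values are given without a test. The 3 of them from E11.5 and E12.5 held 19.04 to 20.6 TPM of beta in all, the E13.5 library 25.2, the E14.5 library 36.1, and E18.5 replicates 2 and 3 held 57.6 and 65.4. The gamma row was at 162 to 169, 172, 191, and then 405 and 430 TPM in the same libraries. The alpha row ranged from 9.40 to 15.3 TPM in the 5 earlier libraries and was 22.9 and 22.6 TPM at E18.5. The 2 late libraries differed from the 5 earlier ones in other markers too: summed astrocyte markers were 709 and 872 TPM against 105 to 277 TPM, and oligodendrocyte lineage markers 449 and 651 TPM against 20.1 to 58.8 TPM. In NSC as a whole, 6 of 7 tested astrocyte markers were called higher with day and 1 lower. Of 7 oligodendrocyte lineage markers, 6 were called higher and 0 lower. Beside these, 14.8% of all genes were called higher and 8.17% lower. The part of these glial markers in the protocadherin changes was not tested.

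**Figure D4:**
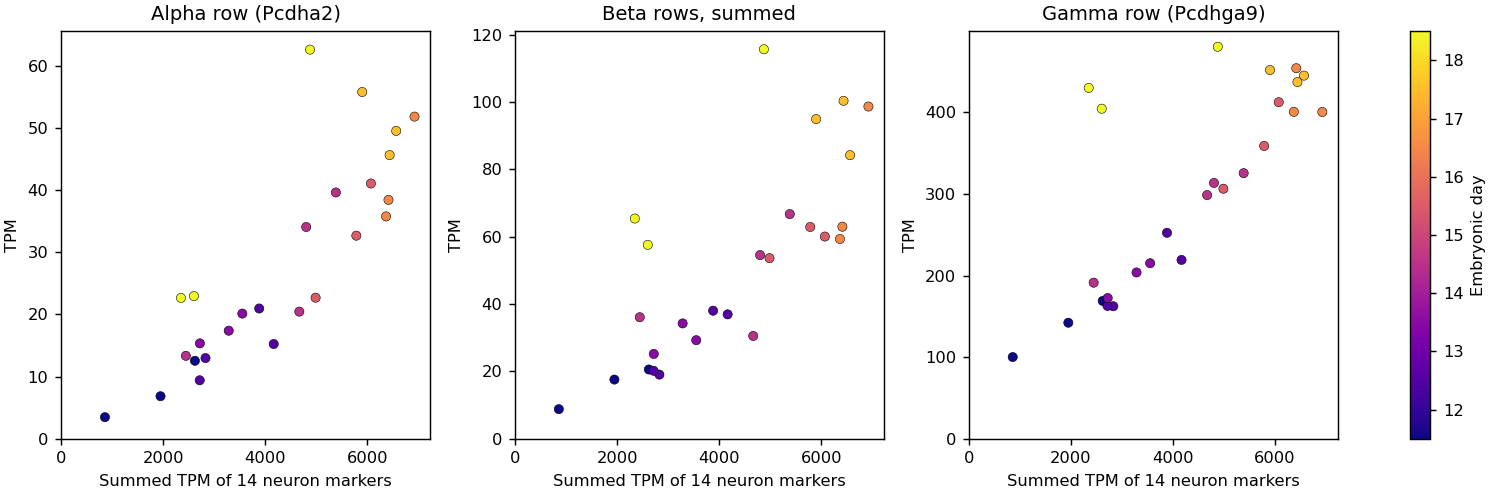
TPM of the alpha row, the summed beta rows and the gamma row in the 26 NSC libraries against the summed TPM of 14 projection neuron markers, coloured by embryonic day. The 2 libraries of lowest marker sum, both E11.5, also have the lowest levels. The E18.5 libraries, with marker sums of 2349, 2604 and 4878, lie above earlier libraries of like marker sum in the alpha row, the beta sum and the gamma row.

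In BP, 4 of 23 members were called higher with day, all of the beta cluster, beside 6.9% of all genes. They were Pcdhb17 (1.12, SE 0.22), Pcdhb19 (1.11, SE 0.20), Pcdhb14 (1.04, SE 0.16) and Pcdhb9 (1.03, SE 0.19). At an adjusted p under 0.05 without a size limit, 20 members rose, beside 27.5% of all genes, among them the gamma row by 0.69 (SE 0.12). The alpha row had a change of -0.20 (SE 0.26, adjusted p = 0.59). Without E18.5 none was called and 9 kept an adjusted p under 0.05, with changes of 0.70 for Pcdhb17, 0.76 for Pcdhb19 and 0.59 for Pcdhb14. Leaving out that day also shortens the span over which the change is counted, while the size limit stays at 1. The loss of calls therefore cannot show that they rested on the last day. Quantile scaling also left none called, with changes just under the limit (Pcdhb17 0.96, Pcdhb19 0.94 and Pcdhb14 0.89, each with an adjusted p under 0.05). Pcdhb14 fell to 0.95 without BP E18.5 replicate 1, and Pcdhb7 was called at 1.07 without BP E12.5 replicate 2. Neuron marker sums went the other way in BP, from 5975 to 6252 TPM at E12.5 to 4477 to 4837 TPM at E18.5. With the neuron marker covariate, again extrapolated across days, 7 members were called, and the median change was 0.81 for the members and 0.11 for all genes. The share of all genes called under this covariate was not computed.

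In NBN, 0 of 23 members were called in either direction by limma over the 4 days, where 3.3% of all genes were called higher and 1.44% lower. The size limit applies to the change over the whole span, which is shorter in NBN than in BP or NSC. Numbers called therefore do not compare the pace of change between cell types. The median change was 0.55 for the members and 0.04 for all genes. In 18 members the change had an unadjusted p under 0.05, for which the share of all genes was not computed. At an adjusted p under 0.05, 9 beta genes were higher, beside 10.9% of all genes. The largest change was that of Pcdhb14 (0.91, SE 0.18). The alpha row had 0.40 (SE 0.30) and the gamma row 0.02 (SE 0.14). Without E18.5, 1 member had an adjusted p under 0.05, and leaving out single libraries gave 2 (E18.5 replicate 1), 3 (E15.5 replicate 2), 4 (E15.5 replicate 3), 5 (E18.5 replicate 3) and up to 11.

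The slopes of NSC and BP were compared over their 7 shared days. The alpha row rose more in NSC by 1.71 (SE 0.36, adjusted p = 0.00026), the only member called, beside 6.86% of all genes called higher and 3.66% lower. At an adjusted p under 0.05 alone, 4 members were higher and 0 lower, beside 14.2% of all genes higher and 2381 of 15231 genes lower. The 4 were the alpha row, Pcdhb20 (0.86, SE 0.29, adjusted p = 0.021), Pcdhb7 (0.76, SE 0.26, adjusted p = 0.025) and the gamma row (0.68, SE 0.17, adjusted p = 0.0015). Without NSC E18.5 replicate 2, Pcdhb20 was also called, at 1.03. Taken as last day minus first day, the alpha difference was 0.90 (adjusted p = 0.24), and with the neuron marker covariate it was -0.11 (adjusted p = 0.90). For no member did the slope of NBN pass the test of a difference from that of BP or of NSC in limma (0 called, 0 at an adjusted p under 0.05 and 0 at an unadjusted p under 0.05). Against BP, 1.02% of all genes were called higher and 1.38% lower, or 1.44% and 1.96% at an adjusted p alone. Against NSC these were 0.854% and 4.58%, or 3.16% and 7.46%.

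Between cell types on the same days, NBN differed from BP in the alpha row. It was higher in NBN by 1.41 (SE 0.15, adjusted p = 2.4e-11), the only member called, beside 5.75% of all genes called higher. All 23 members had a positive difference, with a median of 0.39 against -0.06 for all genes. At an adjusted p under 0.05, 15 were higher, beside 25.3% of all genes. Beside alpha the larger differences were in Pcdhb11 (0.70, SE 0.10), Pcdhb12 (0.67, SE 0.11) and Pcdhb9 (0.64, SE 0.11), named after their values were seen. In Pcdhb9, as in the alpha row, all NBN libraries were above all BP libraries on each of the 4 days. The gamma row differed by 0.07 (SE 0.07, adjusted p = 0.45).

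The comparison of NBN with NSC shares the NBN libraries with the one before. The alpha row was higher in NBN by 1.05 (SE 0.15, adjusted p = 1e-07), again the only member called, beside 2.55% of all genes. At an adjusted p under 0.05, 17 members were higher, beside 21.8% of all genes. The median difference was 0.41 for the members against -0.06 for all genes. The alpha value lies near the size limit: without E18.5 it was 0.87 and with a pseudocount of 5 it was 0.97, both uncalled. It also lost the call without NSC E15.5 replicate 1, NSC E18.5 replicate 2 or NSC E18.5 replicate 3, with a lowest value of 0.99. The gamma row differed by 0.03 (SE 0.07).

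**Figure D5:**
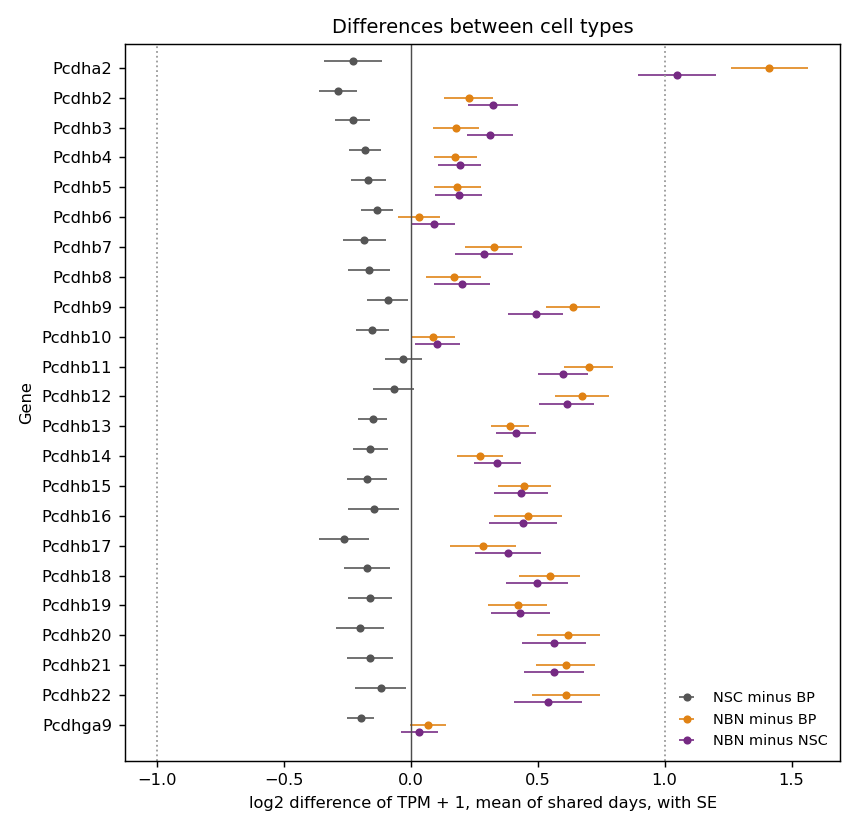
Log2 difference of TPM + 1, averaged over shared days, for NSC minus BP (7 days), NBN minus BP and NBN minus NSC (4 days each) in the 23 tested members, with SE bars and dotted lines at the size limit of 1. The alpha row stands alone beyond the limit, at 1.41 and 1.05, while the gamma row lies at 0.07 and 0.03.

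The neuron marker sums of NBN (8096 to 10563 TPM) did not overlap with those of BP (4151 to 6936 TPM) or NSC. With the neuron marker covariate, which then extrapolates between ranges that do not meet, the alpha difference was -0.14 (adjusted p = 0.57) against BP and 0.07 (adjusted p = 0.72) against NSC. A neuron marker level and the NBN identity cannot be told apart in these groups.

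NSC and BP differed little on average. In limma 0 of 23 members were called, beside 2.56% of all genes called higher and 0.466% called lower. All had a negative difference (NSC lower), with a median of -0.17 against 0.00 for all genes. Of the members, 13 had an unadjusted p under 0.05, for which the share of all genes was not computed. At an adjusted p under 0.05, beside 20.8% of all genes, 7 were lower, led by Pcdhb2 (-0.29, SE 0.07) and the gamma row (-0.20, SE 0.05). This count ran from 2 to 21 over the alternatives. It was 4 without BP E12.5 replicate 2, 11 without NSC E12.5 replicate 1, BP E14.5 replicate 2 or BP E17.5 replicate 2, 12 without NSC E14.5 replicate 3, 13 without NSC E16.5 replicate 1 and 15 without NSC E18.5 replicate 1. The average hides a crossing of the alpha row, which was lower in all NSC libraries than in all BP libraries on 2 of the 7 days and higher on 2 others.

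The ratio of the alpha to the gamma row was highest in NBN on average, with an overlap of libraries. The alpha row was 8.601% of the gamma row in NSC, 9.48% in BP and 19.3% in NBN, as means of the group means. In BP it was 12.1% ± 1.60 (SD, n = 2), 12.7% ± 1.07 (SD, n = 3) and 12.1% ± 3.00 (SD, n = 6) from E12.5 to E14.5, then 6.77% to 8.47% in the group means of E15.5 to E18.5. In NBN it was highest at E18.5, at 24.1% ± 3.16 (SD, n = 3). By library it was 13.497% to 27.03% in NBN and 5.43% to 15.487% in BP, where libraries of E13.5 and E14.5 reached above the lowest NBN libraries. The E18.5 NSC libraries had 13.02% in replicate 1 and 5.67% and 5.26% in replicates 2 and 3.

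Regulators of the locus, the 22 of 24 listed chromatin and looping genes with a row, mostly did not pass the limits. In NSC 0 were called higher with day and 5 lower, beside 8.17% of all genes called lower: Uhrf1, which recruits the maintenance methyltransferase, by -2.58 (SE 0.20), Rest, a repressor of neuronal genes, by -1.74, the de novo methyltransferases Dnmt3b by -1.37 (SE 0.13) and Dnmt3a by -1.29 (SE 0.13), and the cohesin regulator Pds5a by -1.07. In BP 2 were called lower, Rest (-1.66) and Dnmt3a (-1.15), beside 4.39%. Ctcf, the zinc finger protein that anchors protocadherin promoter loops, had -0.26 (adjusted p = 0.062) in NSC and 0.06 in BP. NBN had less Uhrf1 than BP (-1.69) and NSC (-2.15), beside 5.09% and 6.11% of all genes called lower, and more Rest than BP (1.14). Rest was also higher in NSC than in BP (1.07).

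Of 23 tested partners and processing enzymes, 3 were called higher and 1 lower in NBN than in BP, beside 5.75% and 5.09% of all genes. The focal adhesion kinase relative Ptk2b, which the cytoplasmic parts of alpha and gamma proteins are known to inhibit, was higher by 1.83 (SE 0.14), the protein kinase C gene Prkca by 1.36 and the synaptic adhesion gene Nlgn1 by 1.35, and the actin regulator Wasf2 was lower (-1.05). Against NSC, Ptk2b was higher by 1.39 and Wasf2 lower (-1.06). In NSC 5 partners were called higher with day and 0 lower, beside 14.8% and 8.17% of all genes.

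The non-clustered protocadherins and related large cadherins, 18 genes tested, did not move as a block. In NSC 5 were called higher and 2 lower with day, beside 14.8% and 8.17% of all genes, and in BP 3 higher and 6 lower, beside 6.9% and 4.39%. Beside 5.75% and 5.09% of all genes, NBN had 3 called higher than BP, Pcdh1 (1.91), Fat4 (1.35) and Pcdh9 (1.34), and 3 lower, Celsr1 (-3.05), Pcdh18 (-1.60) and Pcdh20 (-1.02). Against NSC, Celsr1 (-2.77) and Fat1 (-1.05) were lower, beside 6.11%. Of 15 tested neighbours of the locus, 3 were called higher with day in NSC and 0 lower (14.8% and 8.17% of all genes), with a median of -0.03 beside 1.38 for the protocadherins. Without the size limit, 3 neighbours were higher and 4 lower at an adjusted p under 0.05, beside 37.1% of all genes higher and 4226 of 15231 lower. Rell2 was the only neighbour called between NBN and BP (1.26, beside 5.75% of all genes called higher). Taf7, which lies between the beta and gamma clusters, had -0.63 in NSC and -0.67 in BP.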

How the data were processed

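The values are TPM per gene that the authors deposited, in one table of 63 libraries from TruSeq single-read sequencing (per the labels' protocols), made with kallisto 0.43.0 on GRCm38.p2 (mm10) per the submitters' processing notes. The transcript set, strand use and read depth are not given in the sources used here. The table was used as deposited. Levels were tested as log2(TPM + 1) with limma 3.58.1 in R 4.3.3, with 1 mean for each of the 19 groups and a trended variance, over the 15231 of 23078 genes that reached 1 TPM in 3 or more libraries. The method was tested on simulated data. The members, gene lists and tests were chosen with earlier results of these data known. Named were the 3 members of highest mean TPM in each cluster, up to 3 called members in each direction for each comparison, and up to 3 called genes of each other list in the cell type comparisons; genes named for their change with day, and Ctcf, Pcdhb2, Pcdhb4, Pcdhb5, Pcdhb8, Pcdhb9, Pcdhb11, Pcdhb12, Pcdhb13 and Taf7, were named after their values were seen. The C-type members Pcdhac1, Pcdhac2, Pcdhgc3, Pcdhgc4 and Pcdhgc5 have no row under those symbols and were not analysed by name. The identifier of the gamma row carries the symbol Pcdhgc4 in GENCODE vM21, so that row may hold C-type transcripts. Alternatives were other pseudocounts, filters and scalings, days or libraries left out, a replicate block, end points in place of slopes, and, added after seeing the data, covariates for transcript length and neuron markers, a block of same-numbered BP and NBN libraries of a day and a call on adjusted p alone. Replicate numbers did not enter the reported tests.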

Additional observations from a re-analysis of the deposited data

Results flagged for a closer look

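In 2 of 30 sets of values examined, each 1 level in 1 group of at least 4 libraries, 1 library lay far from the others, both for the gamma row, and chance gives about 1 in 20. BP E14.5 replicate 6 had 322.04 TPM, below the nearest value of 346.79 TPM. BP E17.5 replicate 1 had 462.16 TPM, above the nearest value of 430.3 TPM.

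The change with day differed between NSC and BP, in limma over their shared days, for the alpha row (1.71, adjusted p = 0.00026), Pcdhb20 (0.86, adjusted p = 0.0211), Pcdhb7 (0.76, adjusted p = 0.0248) and the gamma row (0.68, adjusted p = 0.00154). Each was larger in NSC, and with the neuron marker covariate none kept an adjusted p under 0.05. They were 4 of 23 members, beside 14.2% of all genes higher and 2381 of 15231 genes lower at an adjusted p alone.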

How the results depend on the processing

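Of 845 values recomputed under an alternative other than leaving out 1 library, 756 were rated the same, and 4008 of 4032 when 1 library was left out. A log2 change was rated the same if it kept its direction and its call. A count had to stay within a factor of 1.5, and a cluster level within the pooled SD of its groups. Many of the libraries left out were outside the comparison, where they enter only the estimate of the spread. Counts of members are given below as called, or at an adjusted p under 0.05 alone. They stand without the share of all genes under the same alternative, so a general loss or gain of calls cannot be told apart.

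The neuron marker covariate extrapolates between days and cell types, as described above. With it, called members went from 1 to 0 for NBN minus BP, NBN minus NSC and the NSC minus BP slope difference, from 22 to 6 for the NSC slope and from 4 to 7 for the BP slope. At adjusted p alone they went from 15 to 0 for NBN minus BP, 17 to 1 for NBN minus NSC, 23 to 13 for the NSC slope and 9 to 20 for the NBN slope. Signs turned under it for NBN minus BP in Pcdha2 (-0.14), Pcdhb17 (-0.67), Pcdhb7 (-0.46), Pcdhb20 (-0.20) and Pcdhga9 (-0.39). They turned for NBN minus NSC in Pcdhb17 (-0.22), Pcdhb7 (-0.21) and Pcdhga9 (-0.26), and for the slope difference in Pcdha2 (-0.11), Pcdhb17 (-0.68), Pcdhb7 (-0.16) and Pcdhb20 (-0.10).

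With a pseudocount of 0.1, called members were 3 for NBN minus BP, 8 for the BP slope, 1 for the NBN slope and 5 for the slope difference, and 3 had an adjusted p under 0.05 for the NBN slope. With a pseudocount of 5 they were 0 for NBN minus NSC, 5 for the NSC slope and 0 for the BP slope, and 17 at adjusted p for the NBN slope. A mean of at least 5 TPM left 5 members tested, so counts fell by construction: 2, 3 and 4 at adjusted p for NSC minus BP, NBN minus BP and NBN minus NSC, 5 called and 5 at adjusted p for the NSC slope, 1 and 4 for the BP slope and 1 at adjusted p for the NBN slope. Members lower in NSC than in BP at adjusted p numbered 7, and 21 with quantile scaling, 13 with median-of-ratios scaling, 3 without E18.5, 4 without NSC of E12.5, 17 without NSC of E17.5 and 4 with the transcript length covariate.

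For the BP slope, called members were 0 with quantile scaling, 2 with median-of-ratios scaling, 0 without E18.5 and 7 with the length covariate, and 9 were at adjusted p without E18.5. Leaving out E18.5 also shortens the span of each slope while the size limit stays the same. Without E18.5, NBN minus NSC had 0 called and 11 at adjusted p, the NBN slope 1 at adjusted p and the slope difference 4 called. With the length covariate NBN minus NSC had 0 called and the NBN slope 20 at adjusted p. Last day minus first day gave 0 called for the slope difference. The cause was not tested for these.

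The BP slope of Pcdha2 turned to 0.23 (last day minus first day), 0.067 (length covariate) and 0.27 (neuron marker covariate). The NBN slope of Pcdhga9 turned to -0.0419 with quantile scaling and -0.00824 with median-of-ratios scaling, and ran from -0.048 to 0.096 with 1 library left out.

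With 1 library left out, members lower in NSC than in BP at adjusted p ran from 4 to 15, called members for NBN minus NSC from 0 to 1, members at adjusted p for the NBN slope from 2 to 11, and called members for the slope difference from 1 to 2. As the median gene in place of the sum, the beta level was 1.98, 2.50 and 3.73 TPM in NSC, BP and NBN, against sums of 53.2, 65.7 and 106.

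Among all genes, the share of calls that were higher was 64.4% for the NSC slope and 53.2% with quantile scaling, 61.1% and 50.3% for the BP slope, 29.4% and 42.3% for NBN minus NSC, 42.6% and 60.5% for the NBN minus BP slope difference, and 15.7% and 41.6% for the NBN minus NSC slope difference. With the replicate block the NSC slope called 22 members, the BP slope 4 and the NSC minus BP slope difference 1, as without it. Over 505 pairs of libraries with the same number in different groups, the deviations from the group means had a median correlation of 0.0334. Between BP and NBN of the same day, which come from the same reporter line, 12 of 13 same-numbered pairs had a correlation over 0.1 (median 0.369, against -0.14 for 30 pairs with different numbers), a hint from the data that these libraries share a source. For BP and NSC 7 of 21 and for NBN and NSC 6 of 12 same-day pairs did. Same-numbered BP and NBN libraries of a day were also used as a replicate block, added after seeing the data. This block was balanced within each day, so the differences stayed the same by construction and only SEs and p-values could change. No call of a named member changed, and the SE of Pcdha2 for NBN minus BP was 0.16. TPM keep no depth, so counting error could not be separated from other spread.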
